A study of Mus musculus with 9 samples.

Results

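The comparison set basal keratinocytes from the footpad skin of 24-month-old mice against the same cells from 5-month-old mice. It covered the 10367 genes, of 22399 in the deposited table, whose mean over the 9 libraries of the study was at least 1 FPKM (fragments per kilobase, a level scaled to gene length and library depth). All animals were wild type (WT) on the C57BL/6 strain. The 3 control libraries came from mice aged 5 months on a normal diet. The 3 aged libraries came from mice aged 24 months, for which the labels name no diet. Another 3 libraries, from 5-month-old mice on a high-fat diet, entered only the expression minimum and the estimate of spread. Sex is not given in the labels, and neither is the hour of collection or whether the libraries of a group came from separate animals. The p-values therefore rest on the variation among these libraries alone, which may be technical.

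Basal keratinocytes sit on the basement membrane, hold on to it with integrins and hemidesmosomes, and divide to renew the layers above them. When they leave the membrane they switch from keratins 5 and 14 to keratins 1 and 10. Immediate early genes, among them the subunits of the transcription factor AP-1, are transcribed within minutes of growth factors, wounding or stress, in skin as in other tissues. Epidermal cells also run a circadian clock, a loop of activators and repressors that times many of their genes over the day.

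The cells were freed from the skin by warm trypsin, sorted for CD49f (integrin alpha 6, made by Itga6) and against CD34, and their polyadenylated RNA was sequenced; the labels give 1 protocol for all libraries. Itga6 was at 134, 130 and 137 FPKM in control and 130, 127 and 114 FPKM in aged libraries, with no called difference (-0.11 ± 0.07, adjusted p = 0.324). Cd34, the marker sorted against, was at most 0.0671 FPKM in any of the 6 libraries. Estimated depth, in units of 1e6 reads in genes, was 23.5 to 33.0, and 10230 to 10414 genes reached 1 FPKM in each library. The first principal component of the 6 libraries held 49.3% of the variance and put the 3 control libraries between -16.26 and -9.1 and the 3 aged libraries between 7.43 and 16.81. Aged replicate 3 lay nearest to the controls and was the farthest of the 6 from its own group's mean, with a median absolute deviation of 0.0865 on the log2(FPKM + 1) scale against 0.0679 to 0.0755 in the others.

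Markers of other cell types were mostly near 0. Of 15 fibroblast markers, 13 were under 1 FPKM in all 6 libraries, with Lum, Pdgfrb, Mfap5, Dpt and Pi16 listed at 0, and the list summed to 26.8 to 30.2 FPKM in control and 17.8 to 28.0 in aged libraries, most of it Col6a1. Of 15 T cell markers 13 were under 1 FPKM, with Cd3d, Trdc, Cd8a, Cd4, Nkg7 and Gzma listed at 0, and the list summed to 59.5 to 75.3 FPKM in control and 37.2 to 45.4 in aged libraries. Most of that sum was Thy1, and most of the rest was Trbc2, a constant gene of the T cell receptor, at 13.3, 12.7 and 21.1 FPKM in control and 10.7, 17.7 and 10.6 FPKM in aged libraries (-0.26 ± 0.20, adjusted p = 0.435, not called). All 11 melanocyte markers and all 7 red blood cell markers stayed under 1 FPKM, as did 8 of 9 Merkel cell, 9 of 10 fat cell, 11 of 13 skeletal muscle and 13 of 16 endothelial and mural cell markers. The list for Langerhans and myeloid cells had 12 of 18 members under 1 FPKM, and its summed level was 34.3 to 45.7 FPKM in control and 49.5 to 54.3 in aged libraries. Most of it was Epcam, an adhesion molecule, which rose from 27.3 ± 2.88 to 40.1 ± 0.908 FPKM (0.55 ± 0.09, adjusted p = 0.00459). The antigen presentation genes Cd74 (-0.31 ± 0.31, adjusted p = 0.555), H2-Eb1 (0.50 ± 0.15, adjusted p = 0.0656) and H2-Ab1 (-0.39 ± 0.12, adjusted p = 0.0774) were detected and not called, and Lyz2 and Mrc1 were listed at 0. The list for sweat gland had 11 of 15 under 1 FPKM and summed to 28.0 to 30.8 FPKM in control and 31.8 to 34.1 in aged libraries, and that for Schwann cells had 6 of 10 under 1 FPKM and summed to 33.0 to 39.7 and 30.5 to 36.5. The skeletal muscle list summed to 4.84 to 8.19 FPKM in control and 9.02 to 10.2 in aged libraries. Its tested members were Tnni2, a troponin, which rose from 2.11 ± 0.129 to 4.95 ± 0.905 FPKM (0.93 ± 0.11, adjusted p = 0.00113), and Mylpf, a myosin light chain, which was not called (0.14 ± 0.22, adjusted p = 0.733), while Myh4 and Pvalb were listed at 0. The list for hair follicle and sebaceous gland had 10 of 19 under 1 FPKM and summed to 53.5 to 97.4 FPKM in control and 123 to 159 in aged libraries. Its sums did not overlap between the groups, and neither did those of the T cell, Langerhans and myeloid, sweat gland and skeletal muscle lists. Its leading member was Krt79, with 54.1, 65.9 and 20.2 FPKM in control and 121, 86.8 and 94.4 FPKM in aged libraries (1.24 ± 0.35, adjusted p = 0.0567, not called), while Shh was listed at 0. Sox9 was called higher (0.64 ± 0.14, adjusted p = 0.0226) but lost the call without control replicate 2 or 3 or aged replicate 2 (adjusted p up to 0.071), Lgr6 was called lower (-0.52 ± 0.13, adjusted p = 0.0314) but lost the call without control replicate 1 or 3 or aged replicate 2 or 3 (adjusted p up to 0.111), and Krt28 rose, as given with the differentiation genes. The part of these cells in the results that follow was not tested, and in bulk RNA fewer cells of a type and less RNA per cell cannot be told apart.

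Aged basal cells differed from control cells in a minority of genes, and mostly by modest amounts. At an adjusted p under 0.05 (limma across all 10367 genes, Benjamini-Hochberg), 804 genes were called, or 7.76% of those tested. Of these, 416 were higher in aged cells (4.01%) and 388 were lower (3.74%). The median difference was 0.50 among genes called higher and -0.40 among genes called lower, against -0.01 over all genes tested. All differences are aged minus control on the log2(FPKM + 1) scale, which understates the change of genes at low level, and are given ± SE. Group means are given ± SD (n = 3 libraries). A difference of at least 1 was reached by 51 genes called higher and by 11 called lower. Without adjustment, 2674 of the 10367 genes had a limma p under 0.05, in either direction. The 3 control and the 3 aged libraries did not overlap for 2882 genes (27.8%), of which 801 were also called. Genes called higher were 51.7% of the calls, and 41.5% when each library was scaled to the same total FPKM (360 higher and 507 lower).

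The calls were sensitive to single libraries. Leaving out control replicate 2 left 191 genes called higher and 129 lower, and leaving out control replicate 3 left 199 and 119. Without aged replicate 1 the fit called 190 and 114, and without aged replicate 2 it called 231 and 156. Leaving out aged replicate 3 instead raised them to 592 and 662. A core of 210 genes (2.03% of those tested), 135 higher and 75 lower, was called in the same direction in all 6 fits that left out 1 control or aged library. The genes named as having risen or fallen without further remark belong to this core. For others the libraries whose removal ended the call are named, and for gene lists the number of members in the core stands beside the number called. List counts are to be read against all genes tested, of which 4.01% were called higher, 3.74% lower and 2.03% were in the core.

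Differences also followed base composition. Over 10365 genes the difference and the GC content of the longest transcript had a Spearman rho of -0.329, a description across genes, which are not independent. In the eighth of genes with the lowest GC content (median 40.2%) 54 were called higher and 5 lower, with a median difference of 0.07. In the eighth with the highest GC content (median 59.0%) 33 were called higher and 127 lower, with a median of -0.13. With a GC correction 416 genes were called higher and 358 lower, and 648 of the 804 calls were shared. The strand setting of the counting is not given in the sources used here, so genes that overlap another on the opposite strand are uncertain. Among the core genes named by rule, over 10% of exon length overlapped in this way in Dbp, Bhlhe41 and Ccnd1, given where they appear, and in Mat2a (11.3%), Tmem51 (13%), Psmb8 (14.7%), Selenop (15.4%), C1s1 (18.4%) and Mrps18b (30.5%), and smaller shares in others such as Ndrg1 (8.4%), Ccnd2 (7.9%), Junb (7.5%) and Jun (7.3%). Calls were spread over the chromosomes, from 4.15% of tested genes on the X to 10.9% on chromosome 3.

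**Figure D1:**
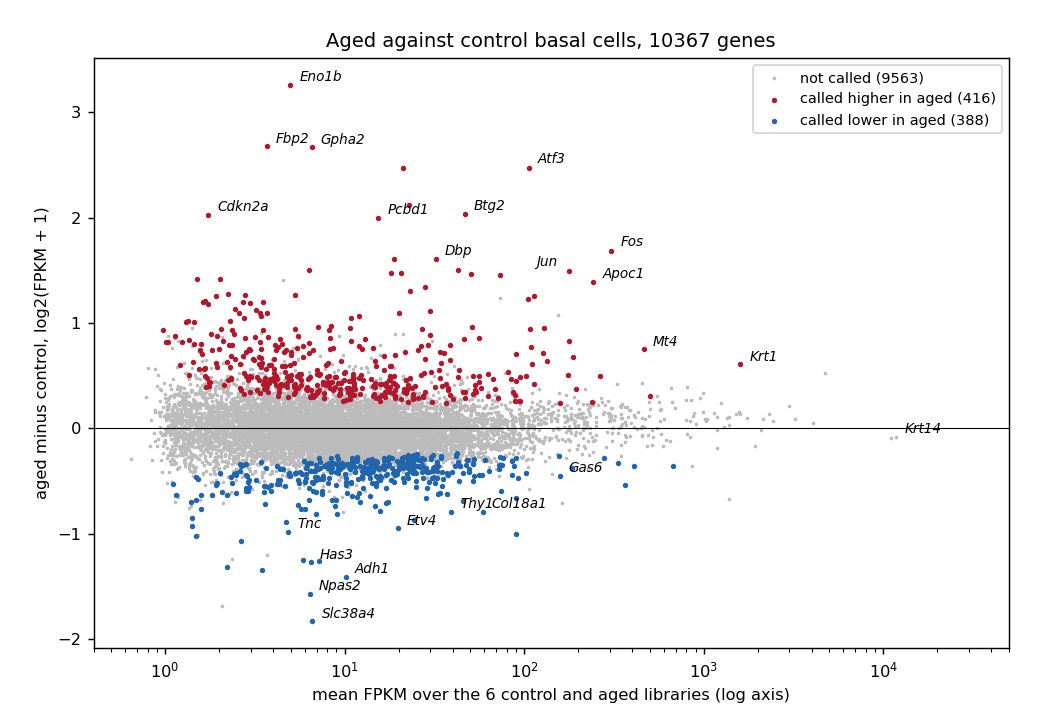
Difference between aged and control cells against mean level for the 10367 genes tested, each point a gene, with the 416 genes called higher in aged cells in red and the 388 called lower in blue. Larger rises than falls stand out, with Eno1b, Fbp2, Gpha2 and Atf3 at the top and Slc38a4, Npas2 and Adh1 at the bottom, while Krt14 lies near 0.

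Many AP-1 subunits and other immediate early genes rose in aged cells, and such genes made up 8 of the 10 largest gains in mean FPKM in the core. Of 12 tested AP-1 subunits 6 were called higher and 1 lower (5 and 1 in the core), with a median difference of 0.41. Of 29 other immediate early genes 11 were called higher and 0 lower (8 and 0 in the core), with a median of 0.46; with limma and no adjustment, the lower side had 1 at p under 0.05. These compare with 4.01% higher and 3.74% lower and a median of -0.01 over all genes tested. The cells were freed by warm trypsin and sorted before their RNA was sequenced, and the part of this handling was not tested.

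Atf3, a stress-induced partner of the Jun proteins on chromosome 1 (GRCm38, chr1:191170296-191218039), was at 28.7, 43.3 and 24.6 FPKM in control and 161, 179 and 198 FPKM in aged libraries. The lowest aged library was several-fold above the highest control library, and the difference was 2.47 ± 0.24 (adjusted p = 4.0e-04). Fos, the subunit that pairs with Jun (chr12:85473890-85477273), was at 119, 170 and 148 FPKM in control and 422, 453 and 521 FPKM in aged libraries (1.68 ± 0.19, adjusted p = 8.8e-04). It was 3.2-fold higher in mean FPKM, and no control library came near the aged ones. Fosb, a close relative of Fos, was at 19.4, 30.3 and 17.5 FPKM in control and 60.9, 61.7 and 68.2 FPKM in aged libraries (1.50 ± 0.19, adjusted p = 0.0014). Jun itself was at 76.4, 114 and 87.7 FPKM in control and 241, 236 and 306 FPKM in aged libraries (1.49 ± 0.19, adjusted p = 0.00153), again with no overlap. Junb rose less, from 127 ± 17.9 to 229 ± 49 FPKM (0.83 ± 0.15, adjusted p = 0.00858).

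The other AP-1 members were not called, fell, or lost their call without 1 library. Fosl2, at 18.6, 22 and 18.7 FPKM in control and 18.4, 18.3 and 21.2 FPKM in aged libraries, and Jund, at 159, 170 and 200 FPKM in control and 185, 158 and 318 FPKM in aged libraries, had overlapping libraries and no call (-0.03 ± 0.11, adjusted p = 0.886, and 0.26 ± 0.21, adjusted p = 0.46). Jund stood high in aged replicate 3 alone. Fosl1, Jdp2 and Mafk were not called either. Of the small Maf proteins, which bind as partners of larger factors and lack an activation domain, Mafg fell from 18 ± 2 to 12 ± 0.327 FPKM (-0.55 ± 0.09, adjusted p = 0.00442). Maff was called higher (0.50 ± 0.14, adjusted p = 0.0489), but lost the call without any 1 of the 6 libraries (adjusted p up to 0.114).

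Among the other immediate early genes the transcription factors Egr1 and Nr4a1 rose. Egr1 was at 55.7, 73.9 and 58 FPKM in control and 149, 124 and 173 FPKM in aged libraries (1.23 ± 0.14, adjusted p = 0.00113). Nr4a1, an orphan nuclear receptor, was at 17.8, 43.5 and 21.4 FPKM in control and 61.5, 73.8 and 84.6 FPKM in aged libraries (1.47 ± 0.25, adjusted p = 0.00735). For Nr4a1 the control libraries were uneven, with replicate 2 about midway between the other controls and the aged libraries. Arc, known best from neurons, where synaptic activity induces it, was at 6.51, 16 and 3.85 FPKM in control and 28.7, 35.4 and 45.8 FPKM in aged libraries (2.12 ± 0.34, adjusted p = 0.00488). Control replicate 2 was again the highest of the controls, yet below every aged library.

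Other members of the list rose as well, some of them known for feedback in the same response. Btg2, an antiproliferative cofactor of mRNA deadenylation, was at 18, 26.5 and 10.9 FPKM in control and 67.2, 84 and 73 FPKM in aged libraries (2.04 ± 0.27, adjusted p = 0.00183). Zfp36 (tristetraprolin), which destabilises cytokine mRNAs, was at 32.9, 47.4 and 35.5 FPKM in control and 91.7, 121 and 110 FPKM in aged libraries (1.46 ± 0.16, adjusted p = 7.7e-04). Both were separate between groups by a wide margin. Dusp1, a phosphatase that switches off MAP kinases, was at 69, 95.9 and 98.9 FPKM in control and 147, 169 and 193 FPKM in aged libraries (0.95 ± 0.19, adjusted p = 0.0141). Plk2, a polo-like kinase, was low in both groups but even within each, at 2.84, 2.51 and 2.72 FPKM in control and 9.05, 7.97 and 6.8 FPKM in aged libraries (1.27 ± 0.10, adjusted p = 5.5e-05). Ccn1, a matricellular protein, was at 53, 93.3 and 58.1 FPKM in control and 156, 157 and 165 FPKM in aged libraries (1.26 ± 0.20, adjusted p = 0.00488).

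Relatives of these genes did not all follow. Zfp36l1 (0.02 ± 0.11, adjusted p = 0.944), Zfp36l2 (0.09 ± 0.14, adjusted p = 0.717), Btg1 (0.18 ± 0.08, adjusted p = 0.164) and Tob1 (0.01 ± 0.12, adjusted p = 0.977) were not called. Egr2, Egr3, Nr4a2, Ier3, Gadd45b and Ccn2 were not called either, with differences of 0.31, 0.48, 0.11, 0.46, 0.57 and 0.70. The remaining 3 were called but are not in the core: Ier2 lost the call without control replicate 1 or 2 or 3 or aged replicate 1 (adjusted p up to 0.0725), Socs3 lost the call without control replicate 2 or aged replicate 2 (adjusted p up to 0.0507), and Csrnp1 lost the call without control replicate 3 (adjusted p = 0.0545).

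**Figure D2:**
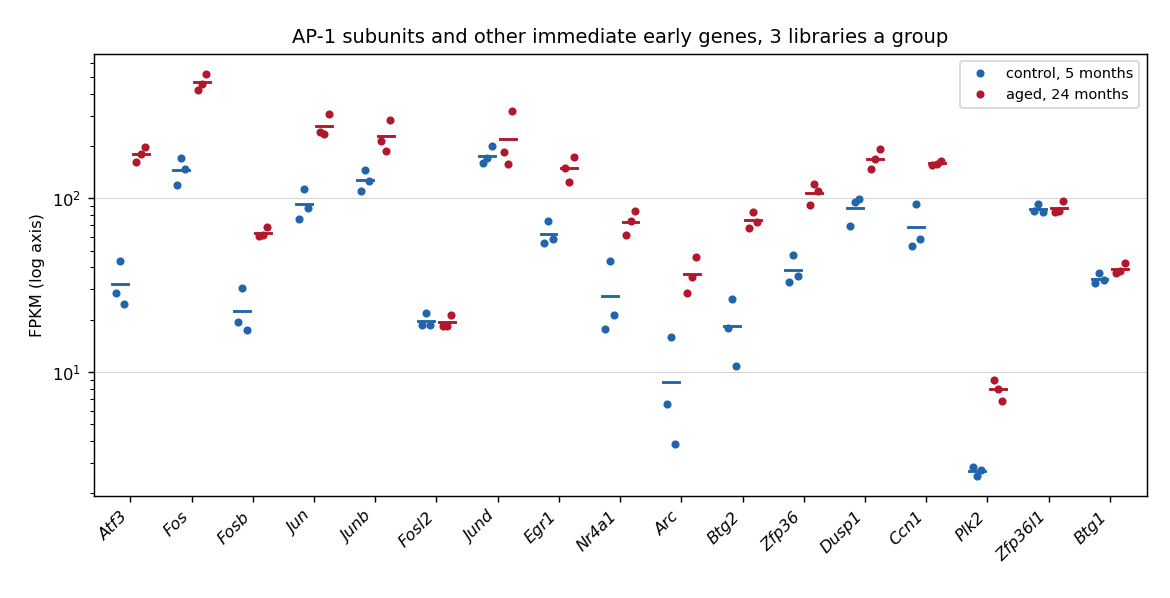
FPKM of AP-1 subunits and other immediate early genes in each library (points) with the group mean (line), on a log axis. Aged libraries lie above all control libraries for Atf3 (161 to 198 against 24.6 to 43.3 FPKM) and Fos (422 to 521 against 119 to 170), whereas Fosl2, Jund, Zfp36l1 and Btg1 overlap.

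Since these genes moved together, the 250 bases before their start sites were searched for elements known from immediate early promoters. The set of RefSeq promoters used here (GRCm38.p6) covered 14 of the 17 AP-1 and other immediate early genes called higher. It held none for Egr1, Arc and Ier2, which were therefore not searched. The cyclic AMP response element TGACGTCA, the same on both strands, stood in the promoters of 4 of the 14, against 3.2% of the 8365 tested genes with a promoter and 1.77% of all 27025 genes of the RefSeq table. Of the other motifs searched on both strands, the AP-1 site TGANTCA stood in 1 of 14 (5.24% of tested genes), the E-box CACGTG in 2 (10.5%), the CArG box, the serum response element, in 1 (1.41%) and the D-box TTANGTAA in 0 (1.67%). No matches overlapped in the sequences shown. A match describes the sequence and does not show that a factor binds there. The promoters of 4 genes that rose are shown, with the matches in capitals: the cyclic AMP response element in Btg2 (chr1:134079156-134079405, minus strand), Dusp1 (chr17:26508473-26508722, minus strand, also with an E-box) and Plk2 (chr13:110394794-110395043, plus strand), and the CArG box in Zfp36 (chr7:28379229-28379478, minus strand).
Btg2: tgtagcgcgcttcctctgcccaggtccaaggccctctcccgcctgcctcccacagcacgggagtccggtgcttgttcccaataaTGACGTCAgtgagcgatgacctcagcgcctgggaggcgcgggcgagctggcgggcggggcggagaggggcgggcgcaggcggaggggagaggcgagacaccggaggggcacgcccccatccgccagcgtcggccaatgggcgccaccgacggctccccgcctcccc
Dusp1: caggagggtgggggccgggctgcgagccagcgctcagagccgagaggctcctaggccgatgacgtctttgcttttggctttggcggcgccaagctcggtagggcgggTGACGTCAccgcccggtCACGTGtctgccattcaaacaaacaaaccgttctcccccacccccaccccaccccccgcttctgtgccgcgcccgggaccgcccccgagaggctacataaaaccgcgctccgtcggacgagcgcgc
Plk2: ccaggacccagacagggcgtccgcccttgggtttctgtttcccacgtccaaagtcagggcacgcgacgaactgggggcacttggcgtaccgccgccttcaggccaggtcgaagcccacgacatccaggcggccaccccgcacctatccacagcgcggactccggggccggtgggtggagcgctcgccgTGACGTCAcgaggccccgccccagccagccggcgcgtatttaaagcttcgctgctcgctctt
Zfp36: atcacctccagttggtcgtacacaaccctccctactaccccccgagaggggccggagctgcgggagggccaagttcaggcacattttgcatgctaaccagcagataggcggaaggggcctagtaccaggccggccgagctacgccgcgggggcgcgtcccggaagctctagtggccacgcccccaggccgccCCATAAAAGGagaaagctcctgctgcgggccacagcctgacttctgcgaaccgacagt

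Other stress genes moved in smaller numbers, beside 4.01% higher, 3.74% lower and 2.03% in the core over all genes tested. Of 24 heat shock proteins and chaperones 4 were called higher and 2 lower (2 and 0 in the core), with a median of 0.09, and 2 were called higher with the GC correction or with scaling to total FPKM. Hspb1, a small heat shock protein, was at 106, 104 and 77.3 FPKM in control and 146, 180 and 146 FPKM in aged libraries (0.72 ± 0.13, adjusted p = 0.011), though 51.6% of its 50-base stretches also occur in transcripts of other genes. Dnajb1, a cochaperone of Hsp70, rose from 47.4 ± 2.57 to 64.7 ± 3.96 FPKM (0.44 ± 0.08, adjusted p = 0.00906). Of 28 genes of the unfolded protein and integrated stress response 3 were called higher and 2 lower (1 and 1 in the core). Nupr1, a stress-induced nuclear protein, was at 1.11, 1.47 and 0.905 FPKM in control and 4.56, 3.18 and 3.46 FPKM in aged libraries (1.13 ± 0.15, adjusted p = 0.00201). Sdf2l1, part of the chaperone complexes of the endoplasmic reticulum, fell from 13.5 ± 1.26 to 8.39 ± 1.41 FPKM (-0.64 ± 0.11, adjusted p = 0.00719). Depp1, a target of FOXO factors, was at 5.12, 10.8 and 3.04 FPKM in control and 28.2, 36.7 and 43.5 FPKM in aged libraries (2.47 ± 0.38, adjusted p = 0.00431), and the controls spread over a wide range below every aged library. Of 13 Krüppel-like factors 2 were called higher (1 in the core), and Klf6 rose from 27.7 ± 2.09 to 49.1 ± 7.46 FPKM (0.79 ± 0.11, adjusted p = 0.00222).

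Cdkn2a and Cdkn2b, neighbouring genes for inhibitors of the cyclin-dependent kinases (CDK) of G1, were higher in aged cells, while the other CDK inhibitors were not called. Of 8 tested inhibitors 2 were called higher and 0 lower, both in the core, with a median of 0.11. Cdkn2a, which encodes p16 and p19ARF (chr4:89274471-89294653), was at 0, 0.212 and 0.0273 FPKM in control and 3.06, 3.3 and 3.87 FPKM in aged libraries. That is an estimated 0, 6 and 1 reads in the control libraries and 119, 123 and 139 in the aged ones, so that it went from at or near 0 to a low level (2.03 ± 0.14, adjusted p = 2.4e-05). A value per gene does not separate its 2 products. Cdkn2b, its neighbour, which encodes p15, was at 1.33, 2.18 and 1.87 FPKM in control and 4.28, 5.25 and 5.28 FPKM in aged libraries (1.10 ± 0.17, adjusted p = 0.0042), with no overlap. Cdkn1a, the p21 gene induced by p53, was at 21.8, 23.3 and 17.9 FPKM in control and 21.4, 27.3 and 31 FPKM in aged libraries (0.32 ± 0.15, adjusted p = 0.213), and the libraries overlapped. Of 32 p53 targets 6 were called higher and 0 lower (3 in the core: Plk2, Btg2 and Pmaip1), with a median of 0.11. Over all genes tested the shares were 4.01% higher, 3.74% lower and 2.03% in the core. Plk2 and Btg2 are also on the immediate early list. Pmaip1, the pro-apoptotic Noxa, was at 1.29, 0.759 and 1.18 FPKM in control and 2.96, 2.76 and 2.72 FPKM in aged libraries (0.88 ± 0.14, adjusted p = 0.00438). Trp53 (-0.19), Mdm2 (0.12) and Bax (-0.05) were not called. Among 15 secreted senescence factors 1 was called higher and 2 lower (1 and 1 in the core). Igfbp4, an insulin-like growth factor binding protein, rose from 14.2 ± 1.76 to 23.9 ± 3.58 FPKM (0.70 ± 0.11, adjusted p = 0.00373), and Mmp3 fell, as given with the matrix genes.

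Cyclins D1 and D2, partners of the kinases that p16 and p15 inhibit, were higher in aged cells, while cyclin D3 was called lower. Ccnd1 was at 80.2, 87.2 and 94.2 FPKM in control and 142, 139 and 121 FPKM in aged libraries (0.61 ± 0.08, adjusted p = 0.00204), and 23.4% of its exon length overlaps a gene on the opposite strand. Ccnd2 rose from 34.7 ± 2.28 to 51.5 ± 4.42 FPKM (0.55 ± 0.10, adjusted p = 0.00735). Within the list of 28 G1 genes 3 were called higher and 6 lower (2 and 0 in the core). Among the 6 was Ccnd3, which encodes cyclin D3. It lost the call without control replicate 2 or 3 or aged replicate 1 or 2 (adjusted p up to 0.0908).

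DNA replication genes leaned lower in aged cells, by small amounts and without calls that withstood the loss of each library. Of 48 tested, 0 were called higher and 10 lower, against 4.01% and 3.74% of all genes tested. Of the 48, 46 had a negative difference, and the median was -0.21. Of the 10, 0 were in the core, and at an unadjusted p under 0.05 the list had 0 higher and 22 lower. The number called lower was 0 without control replicate 3, 1 without aged replicate 1, 2 without aged replicate 2, 6 without control replicate 2 and 16 without aged replicate 3. With the GC correction it was 12. Pcna, the sliding clamp of replication, was at 65.3, 65.2 and 69.5 FPKM in control and 42.2, 53.6 and 51.8 FPKM in aged libraries (-0.44 ± 0.09, adjusted p = 0.0143), and lost the call without control replicate 3 (adjusted p = 0.0545); 31.8% of its 50-base stretches are shared with other genes. Of 47 mitosis genes 0 were called higher and 3 lower (0 in the core), with a median of -0.15, and the count was 0 without control replicate 2 or control replicate 3 or aged replicate 1 or aged replicate 2 and 8 without aged replicate 3. Mki67, present in cycling cells, was at 81.8, 85.7 and 101 FPKM in control and 75.1, 92.8 and 97.2 FPKM in aged libraries, with overlapping libraries (-0.02 ± 0.11, adjusted p = 0.921). The 7 histone genes had no call (0 higher, 0 lower) and a median of -0.21; by unadjusted p under 0.05 there were 0 higher and 3 lower.

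Several output genes and repressors of the circadian clock were called higher in aged cells, and its activators Npas2 and Arntl lower. Of 23 tested clock genes 9 were called higher and 2 lower (6 and 1 in the core), with a median of 0.25. Over all genes tested the shares were 4.01% higher, 3.74% lower and 2.03% in the core. Neither group has an hour of collection in the labels, and the part of time of day was not tested.

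Npas2, a partner of BMAL1 that can stand in for CLOCK (chr1:39193731-39363236), was at 8.47, 11.9 and 9.82 FPKM in control and 1.79, 3.25 and 3.3 FPKM in aged libraries (-1.57 ± 0.20, adjusted p = 0.00153), a 3.62-fold fall of mean FPKM with a wide gap between the groups. Arntl, which encodes BMAL1, was at 12, 12 and 11.4 FPKM in control and 4.94, 7.04 and 7.17 FPKM in aged libraries (-0.81 ± 0.18, adjusted p = 0.0207), but lost the call without control replicate 2 or 3 or aged replicate 1 (adjusted p up to 0.0788). Clock itself was at 15.6, 15.5 and 12.6 FPKM in control and 12.6, 13.9 and 12.8 FPKM in aged libraries, with no call (-0.14 ± 0.09, adjusted p = 0.369).

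The 3 PAR-domain factors, outputs of the clock that bind D-boxes, were called higher. Dbp (chr7:45705088-45710203) was at 11.3, 16.3 and 19.3 FPKM in control and 56.6, 40.9 and 49.5 FPKM in aged libraries (1.61 ± 0.22, adjusted p = 0.00237), with 18.0% of its exon length overlapping Sphk2 on the opposite strand. Tef was at 13.2, 16.2 and 17 FPKM in control and 43.8, 35.1 and 43 FPKM in aged libraries (1.34 ± 0.13, adjusted p = 4.0e-04), with no overlap between groups. Hlf differed less (0.43 ± 0.10, adjusted p = 0.0304) and lost the call without control replicate 1 or 2 or 3 or aged replicate 1 (adjusted p up to 0.102). Nfil3, the repressor that competes for D-boxes, was at 3.46, 3.13 and 2.37 FPKM in control and 0.834, 2.14 and 2.11 FPKM in aged libraries and was not called (-0.60 ± 0.20, adjusted p = 0.0855).

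Repressors of the loop were mixed. Bhlhe41, an E-box repressor, was at 1.63, 1.77 and 1.81 FPKM in control and 5.31, 5.03 and 5.59 FPKM in aged libraries (1.20 ± 0.11, adjusted p = 3.1e-04). Its relative Bhlhe40 was at 36.8, 40.6 and 40.7 FPKM in control and 64.6, 85.2 and 67.9 FPKM in aged libraries (0.86 ± 0.10, adjusted p = 0.00113). In both genes the groups were far apart, though 19.0% of the exon length of Bhlhe41 overlaps a gene model on the opposite strand. Per3 rose from 1.7 ± 0.205 to 3.91 ± 0.612 FPKM (0.86 ± 0.13, adjusted p = 0.00434), and Nr1d2, a nuclear receptor that represses Arntl, from 16 ± 0.979 to 27.2 ± 0.875 FPKM (0.73 ± 0.11, adjusted p = 0.00343). Per2 was called (1.12 ± 0.26, adjusted p = 0.0279) but lost the call without control replicate 2 or 3 or aged replicate 1 (adjusted p up to 0.102). Ciart, another repressor, was called as well (1.07 ± 0.22, adjusted p = 0.016), and lost the call without aged replicate 1 (adjusted p = 0.0608). Per1, Cry1, Cry2 and Nr1d1 were not called, with differences of 0.25, -0.55, 0.31 and 0.23 and overlapping libraries for Per1, Cry1 and Nr1d1.

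**Figure D3:**
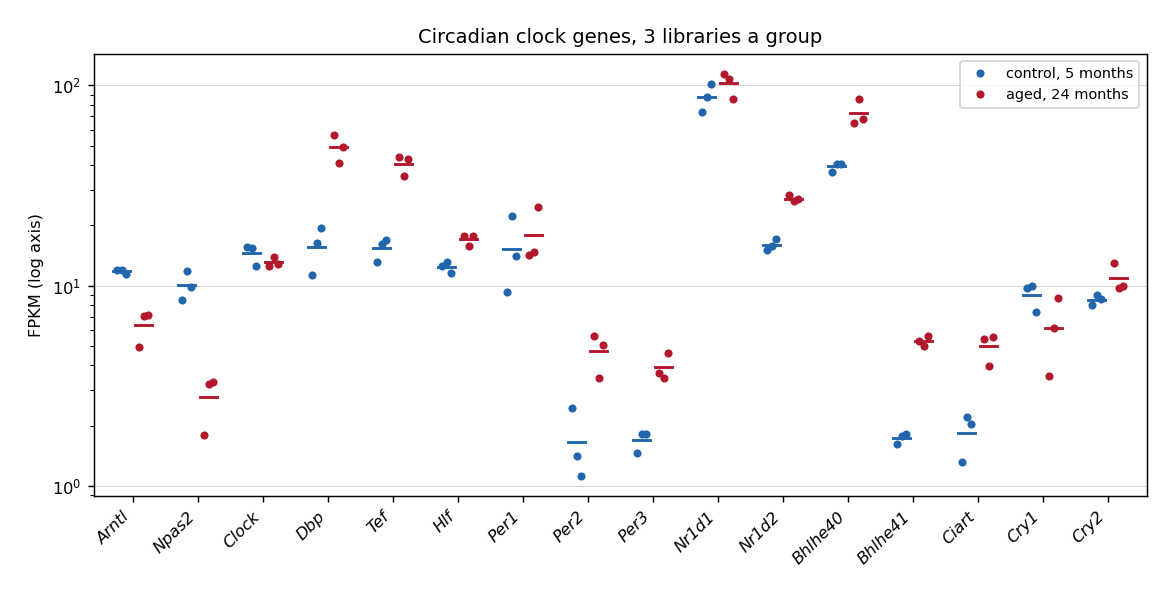
FPKM of clock genes in each library (points) with the group mean (line), on a log axis. Npas2 falls from 8.47 to 11.9 in control to 1.79 to 3.3 FPKM in aged libraries, Dbp, Tef, Bhlhe40 and Bhlhe41 rise without overlap, and Clock, Per1 and Nr1d1 overlap.

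The promoters of the clock genes were searched in the same way. The same set covered 7 of the 9 clock genes called higher, without Bhlhe40 and Per2. The E-box CACGTG stood within 250 bases before a start site in 3 of the 7, against 10.5% of tested genes and 6.86% of all genes of the table. The D-box TTANGTAA stood in 1 of the 7, against 1.67% of tested genes and 2.44% of all, and the cyclic AMP response element in 1. Shown with the matches in capitals are the promoters of Bhlhe41 (chr6:145865421-145865670, minus strand) and of Tef at the second of its 2 listed starts (chr15:81811164-81811413, plus strand), each with 1 E-box, and of Per3 (chr4:151044666-151044915, minus strand) with 2 D-boxes. Dbp and Npas2 had none of the 5 motifs in this window.
Bhlhe41: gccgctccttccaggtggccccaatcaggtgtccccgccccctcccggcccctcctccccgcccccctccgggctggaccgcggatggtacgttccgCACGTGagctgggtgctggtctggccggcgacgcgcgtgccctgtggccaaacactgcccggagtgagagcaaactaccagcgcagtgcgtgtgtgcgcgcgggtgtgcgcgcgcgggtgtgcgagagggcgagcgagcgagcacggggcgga
Tef: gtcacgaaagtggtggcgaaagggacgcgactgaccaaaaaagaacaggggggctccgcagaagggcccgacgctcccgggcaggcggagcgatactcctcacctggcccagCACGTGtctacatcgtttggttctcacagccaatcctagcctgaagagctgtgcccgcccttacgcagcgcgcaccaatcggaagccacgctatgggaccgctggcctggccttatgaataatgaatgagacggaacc
Per3: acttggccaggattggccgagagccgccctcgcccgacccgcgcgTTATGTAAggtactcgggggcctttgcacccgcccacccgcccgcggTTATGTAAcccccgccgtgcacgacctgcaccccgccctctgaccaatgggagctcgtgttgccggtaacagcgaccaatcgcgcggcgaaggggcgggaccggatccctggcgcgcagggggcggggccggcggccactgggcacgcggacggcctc

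Some genes for the basement membrane and the matrix around basal cells were lower in aged cells, while most hemidesmosome genes were not called. Of 14 basement membrane genes 0 were called higher and 6 lower (3 in the core), with a median of -0.26. By unadjusted p under 0.05 there were 0 higher and 8 lower, and the count called lower was 3 without control replicate 3. Of 13 hemidesmosome and anchoring genes 1 was called higher and 1 lower (0 in the core), with a median of -0.15. All genes tested had 4.01% higher and 3.74% lower and a median of -0.01.

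Col18a1, a basement membrane collagen whose fragment is endostatin (chr10:77052178-77166548), was at 64.6, 73.3 and 86.1 FPKM in control and 38.5, 44.3 and 45 FPKM in aged libraries (-0.79 ± 0.11, adjusted p = 0.00222). Npnt (nephronectin), a ligand of integrin alpha 8 beta 1, was at 21.6, 19.3 and 23.1 FPKM in control and 12.2, 11.9 and 13.8 FPKM in aged libraries (-0.71 ± 0.09, adjusted p = 0.0014). Col4a5, a chain of collagen IV, was at 16.7, 16.3 and 18 FPKM in control and 10.7, 11.5 and 9.49 FPKM in aged libraries (-0.64 ± 0.09, adjusted p = 0.00198). In all 3 genes every aged library was below every control library. The laminin chains Lamc1 and Lama5 were called lower (-0.49 ± 0.10, adjusted p = 0.0141, and -0.41 ± 0.10, adjusted p = 0.0269), but Lamc1 lost the call without control replicate 3 or aged replicate 1 (adjusted p up to 0.0564), and Lama5 lost the call without control replicate 2 or 3 or aged replicate 1 or 2 (adjusted p up to 0.0971). Col4a6, Lamb1, Lamb2, Hspg2 and Agrn were not called, with differences of -0.23, -0.03, 0.07, -0.29 and -0.17.

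Among the hemidesmosome genes Col17a1, the transmembrane collagen, was at 1150, 1260 and 1390 FPKM in control and 1120, 1070 and 1140 FPKM in aged libraries, with a difference of -0.19 ± 0.10 and no call (adjusted p = 0.236). Itgb4 (-0.28 ± 0.12, adjusted p = 0.178) and the laminin chains Lama3 and Lamb3 (-0.11 and -0.16) were not called. Col7a1, which forms anchoring fibrils below the membrane, was at 71.5, 100 and 99.3 FPKM in control and 62.2, 58.5 and 56.4 FPKM in aged libraries and was called lower (-0.59 ± 0.13, adjusted p = 0.0242), but lost the call without control replicate 2 or 3 or aged replicate 1 or 2 (adjusted p up to 0.0907).

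Secreted matrix proteins went both ways, with 3 of 24 called higher and 5 lower (2 and 2 in the core). Tnc (tenascin C), a matrix protein of wounds, was at 7.44, 5.83 and 7.04 FPKM in control and 2.57, 2.5 and 3.8 FPKM in aged libraries (-0.98 ± 0.17, adjusted p = 0.00719). Mfge8, which bridges integrins and apoptotic cells, fell from 11.3 ± 0.468 to 6.39 ± 0.973 FPKM (-0.74 ± 0.11, adjusted p = 0.00309). Thbs1 (thrombospondin 1), an inhibitor of vessel growth, went the other way, at 15.1, 13.9 and 10.2 FPKM in control and 36.9, 30 and 33.4 FPKM in aged libraries (1.30 ± 0.13, adjusted p = 4.0e-04). None of these 3 genes had an aged library within the control range. Has3, a hyaluronan synthase, was at 10.7, 8.83 and 9.12 FPKM in control and 2.5, 4.14 and 3.62 FPKM in aged libraries (-1.27 ± 0.21, adjusted p = 0.00517), with the aged libraries well below the controls. Gpc3, a glypican, was at 4.29, 5.92 and 5.88 FPKM in control and 2.47, 0.971 and 1.26 FPKM in aged libraries (-1.34 ± 0.20, adjusted p = 0.00343). The aged libraries differed among themselves but all lay below the controls. Hs3st6, which sulfates heparan sulfate, fell from 31.6 ± 4.15 to 16.8 ± 3.02 FPKM (-0.87 ± 0.14, adjusted p = 0.00452). Of 18 matrix proteases and inhibitors 1 was called higher and 3 lower (0 and 3 in the core). Mmp3 (stromelysin) was at 13.3, 6.77 and 11.7 FPKM in control and 3.74, 4.79 and 2.75 FPKM in aged libraries (-1.26 ± 0.24, adjusted p = 0.011). The protease Adam8 fell from 11.2 ± 1.15 to 6.61 ± 0.469 FPKM (-0.68 ± 0.09, adjusted p = 0.00168), and the membrane-bound Mmp15 fell from 14.7 ± 1.41 to 9.29 ± 0.23 FPKM (-0.61 ± 0.10, adjusted p = 0.0049).

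Some genes of FGF receptors and of feedback on ERK, the kinase they activate, were lower as well. Of 22 in the list 0 were called higher and 5 lower (2 in the core), against 4.01% and 3.74% (2.03% in the core) of all genes tested. The median was -0.19. By unadjusted p under 0.05 there were 1 higher and 8 lower, and the count called lower was 2 without control replicate 2 or control replicate 3 or aged replicate 1 and 3 without aged replicate 2. Etv4, an ETS factor induced by FGF (chr11:101769742-101785371), was at 25.4, 25.1 and 28.8 FPKM in control and 12.2, 13.2 and 14.2 FPKM in aged libraries (-0.95 ± 0.10, adjusted p = 7.2e-04), with no overlap. Spry2 (sprouty 2), a feedback inhibitor of ERK, was at 18.2, 22.4 and 19.5 FPKM in control and 12.2, 9.17 and 12.7 FPKM in aged libraries (-0.78 ± 0.12, adjusted p = 0.0036). Fgfr2, the receptor for keratinocyte growth factor, was called lower (-0.45 ± 0.10, adjusted p = 0.0188), but lost the call without control replicate 2 or 3 or aged replicate 1 or 2 (adjusted p up to 0.0719). Dusp6 (-0.38 ± 0.17, adjusted p = 0.189) and Spry1 (-0.19 ± 0.18, adjusted p = 0.53) were not called. Other signals that fell were Id2 and Id3, targets of BMP signalling that block helix-loop-helix factors, from 9.11 ± 0.824 to 4.76 ± 0.144 FPKM (-0.81 ± 0.10, adjusted p = 0.00113) and from 45.3 ± 5.2 to 29.1 ± 2.51 FPKM (-0.62 ± 0.11, adjusted p = 0.0102). Pdgfc, a growth factor for stroma, fell from 7.1 ± 0.832 to 3.9 ± 0.661 FPKM (-0.73 ± 0.13, adjusted p = 0.0105). The receptor tyrosine kinase Axl rose from 19.4 ± 0.979 to 34.1 ± 2.68 FPKM (0.78 ± 0.08, adjusted p = 4.0e-04), while its ligand Gas6 fell from 182 ± 13.4 to 133 ± 1.21 FPKM (-0.45 ± 0.08, adjusted p = 0.00688). Kitl (stem cell factor), which acts on melanocytes and mast cells, rose from 2.22 ± 0.503 to 4.03 ± 0.482 FPKM (0.65 ± 0.12, adjusted p = 0.0117). The guidance genes Sema3f and Epha1 fell, from 41.4 ± 4.51 to 27.9 ± 2.57 FPKM (-0.55 ± 0.10, adjusted p = 0.00737) and from 47.6 ± 0.824 to 38 ± 0.332 FPKM (-0.32 ± 0.06, adjusted p = 0.0102).

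**Figure D4:**
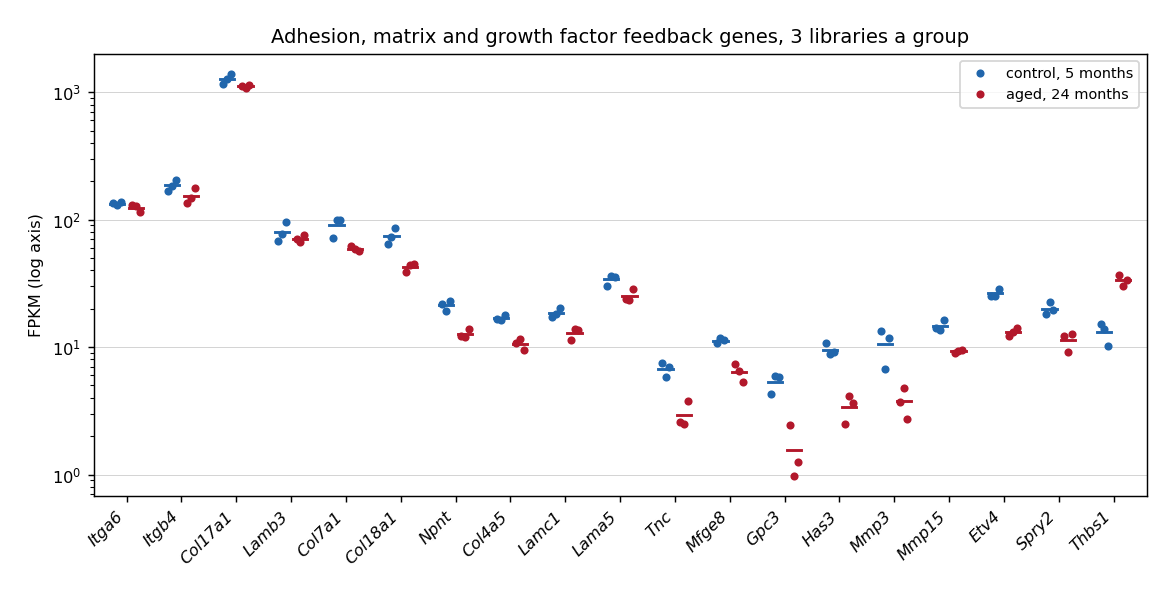
FPKM of adhesion, matrix and growth factor feedback genes in each library (points) with the group mean (line), on a log axis. Aged libraries lie below all control libraries for Col18a1 (38.5 to 45 against 64.6 to 86.1 FPKM), Npnt, Col4a5, Tnc, Has3, Etv4 and Spry2, Thbs1 lies above, and Itga6 and Lamb3 overlap.

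The gene with the largest rise of all was Eno1b, which encodes an enolase of glycolysis and is a near copy of Eno1. It was at 0.18, 0.0663 and 0.0853 FPKM in control and 11.2, 6.86 and 11.5 FPKM in aged libraries (3.26 ± 0.43, adjusted p = 0.00198). Of its 50-base stretches 84.5% also occur in transcripts of other genes, so its level and that of Eno1 are uncertain. Eno1 was at 52.1, 50.5 and 59.5 FPKM in control and 42, 44.3 and 44.1 FPKM in aged libraries (-0.30 ± 0.08, adjusted p = 0.0332), but lost the call without control replicate 1 or 2 or 3 or aged replicate 1 or 2 (adjusted p up to 0.11). The sum of the pair was 52.3, 50.6 and 59.6 FPKM in the control libraries and 53.1, 51.2 and 55.6 FPKM in the aged ones, which overlap. Eno1b made up 0.131% to 0.345% of the sum in control and 13.4% to 21% in aged libraries.

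Other metabolic genes also stood out. Fbp2, an isozyme of fructose-1,6-bisphosphatase, which works in gluconeogenesis (chr13:62836877-62858422), was at 0.126, 0.621 and 0.0872 FPKM in control and 8.87, 6.34 and 6.15 FPKM in aged libraries (2.68 ± 0.17, adjusted p = 2.4e-05). This corresponds to an estimated 6, 22 and 4 reads in control and 431, 296 and 277 in aged libraries. Of 31 genes of glycolysis and gluconeogenesis 5 were called higher and 1 lower (3 and 0 in the core), including Eno1b and Fbp2. The third in the core was Pdk1, which restrains pyruvate entry into mitochondria and rose from 15.4 ± 0.321 to 20.5 ± 1.46 FPKM (0.39 ± 0.07, adjusted p = 0.00881). Of 21 hypoxia targets 3 were called higher and 0 lower (1 in the core), with Ndrg1 rising from 7.29 ± 0.87 to 10.6 ± 0.557 FPKM (0.49 ± 0.09, adjusted p = 0.00821). Car2 (carbonic anhydrase 2) was at 4.38, 2.02 and 2.33 FPKM in control and 9.07, 8.64 and 11.6 FPKM in aged libraries (1.50 ± 0.18, adjusted p = 0.00128).

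Pcbd1, an enzyme that recycles tetrahydrobiopterin and also serves as a cofactor of the factor HNF1 (chr10:61089331-61094324), was at 5.16, 6.35 and 5.25 FPKM in control and 24.7, 26.1 and 24.7 FPKM in aged libraries (2.0 ± 0.12, adjusted p = 2.4e-05). The 3 aged libraries agreed closely, far above the controls. Of 7 genes of tetrahydrobiopterin metabolism 3 were called higher and 0 lower (2 in the core). The second was Pts, which makes a precursor and rose from 5.72 ± 0.204 to 8.6 ± 1.29 FPKM (0.51 ± 0.10, adjusted p = 0.0127). Spr, Qdpr and Pcbd2 were not called, with differences of -0.13, -0.13 and 0.40. In retinoid metabolism 2 of 20 genes were called higher and 2 lower (1 and 1 in the core). Adh1, an alcohol dehydrogenase that can oxidise retinol, was at 16.1, 15.5 and 14 FPKM in control and 4.42, 5.88 and 5.01 FPKM in aged libraries (-1.41 ± 0.19, adjusted p = 0.00202). Crabp2, which carries retinoic acid to its receptor, rose from 18.2 ± 4.14 to 35.7 ± 7.21 FPKM (0.94 ± 0.18, adjusted p = 0.0117).

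The gene with the largest fall was Slc38a4, a transporter of neutral and cationic amino acids (chr15:96994820-97055956), at 12.1, 10.5 and 10 FPKM in control and 2.56, 3 and 1.58 FPKM in aged libraries (-1.83 ± 0.20, adjusted p = 7.3e-04). Every aged library was far below every control library. Slc7a5, which imports large neutral amino acids, fell from 56.6 ± 2.3 to 35.2 ± 6.51 FPKM (-0.69 ± 0.13, adjusted p = 0.0115), while its relative Slc7a8 rose from 0.946 ± 0.178 to 2.67 ± 0.702 FPKM (0.90 ± 0.15, adjusted p = 0.00511). Slc16a3, which exports lactate, rose from 2.83 ± 0.504 to 5.92 ± 1.12 FPKM (0.85 ± 0.13, adjusted p = 0.00358). Of the 28 transporters in the list 2 were called higher and 3 lower (2 and 2 in the core).

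Several glutathione transferases and other detoxification genes were higher in aged cells. Of 43 genes in the list 12 were called higher and 1 lower (6 and 0 in the core), with a median of 0.20. Over all genes tested the shares were 4.01% higher, 3.74% lower and 2.03% in the core. The number called higher was 6 without control replicate 2 or aged replicate 1 and 7 without aged replicate 2. Gsta3 was at 1.5, 1.02 and 1.03 FPKM in control and 3.36, 3.49 and 3.38 FPKM in aged libraries (1.02 ± 0.13, adjusted p = 0.00155), and its aged libraries were nearly equal. Gsto1 rose from 145 ± 2.44 to 208 ± 19.3 FPKM (0.51 ± 0.08, adjusted p = 0.00517), Mgst2, a membrane-bound transferase, from 5.57 ± 0.692 to 11 ± 1.98 FPKM (0.86 ± 0.14, adjusted p = 0.00578), and its relative Mgst1 from 27.2 ± 5.59 to 42 ± 0.891 FPKM (0.62 ± 0.11, adjusted p = 0.00912). Ephx1, an epoxide hydrolase, rose from 51.4 ± 5.03 to 74.1 ± 2.67 FPKM (0.52 ± 0.08, adjusted p = 0.00356). Nqo1 (0.03 ± 0.13, adjusted p = 0.92), Gclc (0.05 ± 0.07, adjusted p = 0.724), Txnrd1 (-0.07 ± 0.11, adjusted p = 0.728) and Srxn1 (-0.17 ± 0.09, adjusted p = 0.244), which are well-known NRF2 targets, were not called, while Gclm, a subunit of the enzyme that starts glutathione synthesis, rose (0.47 ± 0.09, adjusted p = 0.0121). Among 25 antioxidant enzymes 3 were called higher and 0 lower (2 in the core). Cat (catalase) rose from 24.6 ± 1.52 to 36.1 ± 1.66 FPKM (0.54 ± 0.07, adjusted p = 0.00188) and Selenop, a selenium carrier, from 2.34 ± 0.159 to 5.13 ± 0.778 FPKM (0.87 ± 0.10, adjusted p = 0.0012). The reductases Akr1c13 and Ptgr1, which act on steroids and prostaglandins, rose from 0.579 ± 0.0786 to 2.66 ± 0.511 FPKM (1.20 ± 0.18, adjusted p = 0.00365) and from 18.9 ± 0.401 to 32.6 ± 6.31 FPKM (0.74 ± 0.13, adjusted p = 0.00688). Near-identical family members could split reads, and 28.6% of the 50-base stretches of Akr1c13 were shared with other genes.

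Immune genes of keratinocytes moved in small numbers, beside 4.01% higher, 3.74% lower and 2.03% in the core over all genes tested. B2m, the light chain of MHC class I, was at 93.1, 65.9 and 63.1 FPKM in control and 114, 153 and 159 FPKM in aged libraries (0.94 ± 0.16, adjusted p = 0.00735). Psmb8, an immunoproteasome subunit, rose from 0.62 ± 0.232 to 1.86 ± 0.374 FPKM (0.82 ± 0.15, adjusted p = 0.00822); they were the 2 of 18 class I presentation genes called higher, with 0 lower and both in the core. Of 8 complement and acute phase genes 3 were called higher and 0 lower (2 in the core). C1s1 and C1ra, the proteases that start the classical complement pathway, were both higher. C1s1 was at 22.1, 22.1 and 20.6 FPKM in control and 37.5, 34.3 and 32.5 FPKM in aged libraries (0.66 ± 0.08, adjusted p = 0.00113). C1ra was at 4.59, 4.03 and 4.94 FPKM in control and 7.73, 8.01 and 8.47 FPKM in aged libraries (0.72 ± 0.09, adjusted p = 0.00128). The groups were apart, but 50.8% of the 50-base stretches of C1ra and 24.3% of those of C1s1 are shared with other genes. Of 32 interleukin 1 and NF-kB feedback genes 4 were called higher and 2 lower (2 and 1 in the core). Tnfaip3 (A20), which restrains NF-kB, was at 1.4, 1.43 and 1.38 FPKM in control and 2.82, 4.45 and 4.97 FPKM in aged libraries (1.05 ± 0.15, adjusted p = 0.00222). Il1rn, the interleukin 1 receptor antagonist, rose from 4.31 ± 0.585 to 8.36 ± 1.6 FPKM (0.81 ± 0.13, adjusted p = 0.0045). Il1rl2, the receptor of interleukin-36, fell from 16.2 ± 0.159 to 11.4 ± 0.416 FPKM (-0.47 ± 0.07, adjusted p = 0.00343). Orm1, an acute phase protein that was not on the list of 8 above, was at 11.9, 10.9 and 5.33 FPKM in control and 30.6, 28.5 and 21.5 FPKM in aged libraries (1.48 ± 0.26, adjusted p = 0.00821), with 20.4% of its 50-base stretches shared with other genes. Of 24 interferon response genes 3 were called higher and 1 lower, and 0 were in the core.

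The basal keratins Krt5, Krt14 and Krt15 and the factor Trp63 were not called. Krt5 was at 10500, 10300 and 13600 FPKM in control and 11000, 10400 and 10700 FPKM in aged libraries and Krt14 at 11000, 11200 and 14200 FPKM in control and 11500, 11200 and 11400 FPKM in aged libraries, with differences of -0.09 ± 0.13 (adjusted p = 0.697) and -0.08 ± 0.12 (adjusted p = 0.69). Krt15 (-0.08 ± 0.11, adjusted p = 0.692) and Trp63, which encodes p63 (-0.24 ± 0.09, adjusted p = 0.127), had no call either. Of 31 identity genes 0 were called higher and 4 lower (2 in the core), with a median of -0.08. The largest fall among the 4 was that of Thy1 (CD90), at 50.2, 45.9 and 53.3 FPKM in control and 33.2, 26.8 and 25.7 FPKM in aged libraries (-0.79 ± 0.10, adjusted p = 0.00168), with every aged library below every control library. Thy1 is also a T cell marker. Among the 15 T cell markers Trbc2 was at the levels given above and was not called. Lck and Trac were detected at under 1 FPKM, and 6 others were listed at 0. Whether T cells had a part in the fall of Thy1 was not tested. Cux1, a homeobox factor, fell from 3.22 ± 0.427 to 1.75 ± 0.0211 FPKM (-0.61 ± 0.11, adjusted p = 0.00735).

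A few genes of early differentiation were called higher, beside 4.01% higher, 3.74% lower and 2.03% in the core over all genes tested. Krt1 was at 1180, 1440 and 1160 FPKM in control and 2320, 1860 and 1630 FPKM in aged libraries and was called (0.61 ± 0.13, adjusted p = 0.0198), but lost the call without control replicate 1 or 3 or aged replicate 1 or 2 (adjusted p up to 0.073). Krt10, its partner, was at 3810, 4460 and 3330 FPKM in control and 6490, 5480 and 4750 FPKM in aged libraries (0.53 ± 0.17, adjusted p = 0.0761, not called). Of 32 early differentiation genes 5 were called higher and 1 lower (1 and 0 in the core), with a median of 0.17, and the count called higher was 1 without control replicate 3 or aged replicate 1 or aged replicate 2 and 3 without control replicate 1. The one in the core was Mt4, a metallothionein of stratified epithelia, at 360, 389 and 294 FPKM in control and 645, 572 and 528 FPKM in aged libraries (0.75 ± 0.11, adjusted p = 0.00373). Krt28, a keratin of the hair follicle's inner root sheath, was at 0.227, 0.332 and 0.533 FPKM in control and 2.75, 2.23 and 2.97 FPKM in aged libraries (1.42 ± 0.14, adjusted p = 4.0e-04), a low level in both groups; it is also on the hair follicle marker list. Of 16 cornified envelope genes 0 were called higher and 2 lower (0 in the core), and of 29 ceramide and barrier lipid genes 0 were called in either direction, with 2 higher and 1 lower at an unadjusted limma p under 0.05.

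Further rises came from genes of varied function. Gpha2, the alpha subunit of the hormone thyrostimulin (chr19:6226380-6227768), was at 1.48, 1.08 and 0.624 FPKM in control and 12.8, 9.97 and 13.3 FPKM in aged libraries (2.67 ± 0.18, adjusted p = 2.4e-05), or 11.3-fold higher in mean FPKM. Apoc1, an apolipoprotein, was at 136, 140 and 125 FPKM in control and 362, 379 and 315 FPKM in aged libraries (1.39 ± 0.15, adjusted p = 6.3e-04), the most abundant of the 25 genes with the largest rises apart from Fos. Vsnl1, a calcium sensor, was at 12.6, 6.91 and 7.12 FPKM in control and 36.5, 29.2 and 20.9 FPKM in aged libraries (1.61 ± 0.21, adjusted p = 0.00188). Sncg, a synuclein, was at 10.5, 6.96 and 13.5 FPKM in control and 21, 29.4 and 42.5 FPKM in aged libraries (1.48 ± 0.24, adjusted p = 0.00546). In both the aged libraries spread widely, yet above the controls. Mcam (CD146), an adhesion molecule, was at 1.51, 1.2 and 0.937 FPKM in control and 4.08, 3.89 and 5.09 FPKM in aged libraries (1.27 ± 0.14, adjusted p = 6.3e-04). Piwil2, a PIWI protein known from the germ line, was at 0.867, 0.706 and 0.37 FPKM in control and 3.46, 3.05 and 3.66 FPKM in aged libraries (1.42 ± 0.15, adjusted p = 6.3e-04). Ctsh, a lysosomal protease, was at 7.17, 6.92 and 8 FPKM in control and 18.4, 15.6 and 15.8 FPKM in aged libraries (1.07 ± 0.08, adjusted p = 5.5e-05). In its list 4 of 43 autophagy and lysosome genes were called higher and 0 lower (1 in the core).

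Several falls were also among genes of varied function. Epb41l3, a protein that links membrane and cytoskeleton, fell from 2.15 ± 0.196 to 0.665 ± 0.196 FPKM (-0.93 ± 0.13, adjusted p = 0.0022). Suox (sulfite oxidase) fell from 21.7 ± 1.11 to 13 ± 0.945 FPKM (-0.70 ± 0.07, adjusted p = 6.3e-04), and Bok, a BCL2 relative, from 111 ± 8.37 to 69.9 ± 2.94 FPKM (-0.66 ± 0.08, adjusted p = 0.00142). Qtrt1, which places queuosine in transfer RNA, fell from 10.6 ± 0.389 to 6.33 ± 1.05 FPKM (-0.68 ± 0.11, adjusted p = 0.00467). Mat2a, which makes S-adenosylmethionine, fell from 65 ± 3.17 to 47.7 ± 2.99 FPKM (-0.44 ± 0.08, adjusted p = 0.00717). The remaining genes among the 25 largest falls, Rufy4, Tmem51 and Slfn9, had differences of -0.77, -0.70 and -0.68. Among abundant genes Ddx39b, an RNA helicase, fell from 99.3 ± 6.58 to 77.1 ± 1.36 FPKM (-0.36 ± 0.07, adjusted p = 0.0109), and Dap, a regulator of autophagy, from 51.2 ± 0.927 to 36.1 ± 2.16 FPKM (-0.50 ± 0.07, adjusted p = 0.00203).

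Protein synthesis and respiration genes show how far 1 library could set a count. Of 82 cytosolic ribosomal protein genes 72 had a positive difference, with a median of 0.15, but 2 were called higher and 0 lower (0 in the core). The number called higher was 0 without control replicate 1 or control replicate 2 or control replicate 3 or aged replicate 1 or aged replicate 2 and 29 without aged replicate 3. Rpl12 was at 457, 417 and 466 FPKM in control and 583, 564 and 517 FPKM in aged libraries (0.31 ± 0.09, adjusted p = 0.0486) and lost the call without control replicate 1 or 2 or 3 or aged replicate 1 or 2 (adjusted p up to 0.157), with 16.6% of its 50-base stretches shared. Of 76 nuclear genes of the respiratory chain and ATP synthase 1 was called higher and 2 lower (1 and 0 in the core), with a median of 0.07, and the number called higher was 15 without aged replicate 3. Ndufa6, the one in the core, rose from 41.3 ± 1.32 to 52.9 ± 2.27 FPKM (0.35 ± 0.07, adjusted p = 0.0111). Of 33 genes of fatty acid oxidation 2 were called higher and 0 lower (1 in the core), with Hadh rising from 30 ± 0.328 to 40 ± 3.29 FPKM (0.40 ± 0.07, adjusted p = 0.00938). Of 29 cholesterol genes 2 were called higher and 2 lower (0 and 1 in the core).

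The other gene lists had few members in the core. Over all genes tested the shares were 4.01% higher, 3.74% lower and 2.03% in the core. In signalling, the lists for Wnt (2 of 36 higher, 2 lower), Notch (1 of 22 and 1) and EGF receptors (1 of 15 and 0) had no member in it. The list for TGF-beta and BMP had 2 of 38 higher and 4 lower, with Id2 and Id3 in the core, that for insulin and IGF 4 of 24 and 1, with Igfbp4 and the protease Htra1, and that for YAP targets 4 of 31 and 0, with Axl and Ccn1. Calcium entry and calmodulin (3 of 36 and 1, Vsnl1 in the core), ephrins and semaphorins (2 of 31 and 4, Sema3f and Epha1) and signals to vessels and stroma (3 of 21 and 2, Thbs1, Kitl and Pdgfc) had few calls in either direction. FOXO targets and sestrins (2 of 22 and 0, Depp1 in the core) and glucocorticoid response genes (3 of 17 and 0, Dusp1) shared members with the stress lists.

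In adhesion and structure, desmosomes and cadherins had 0 of 25 higher and 4 lower, actin and myosin regulators 0 of 44 and 4, other integrins 0 of 16 and 1, and tight and gap junctions 0 of 23 and 1, all outside the core. Glypicans and syndecans had 1 of 13 higher and 3 lower, with Gpc3 in the core, and stress and plantar keratins 1 of 10 and 0. Ion and water transport had 4 of 46 higher and 5 lower and S100 proteins 0 of 11 and 1, with none in the core, and serpins had 0 of 15 in either direction, with 3 higher and 1 lower at an unadjusted limma p under 0.05. In chromatin and DNA repair, polycomb and silencing genes had 0 of 32 higher and 2 lower, and repair genes 0 of 41 and 2, none in the core. For polycomb and silencing genes the lower count was 0 without any 1 control library or aged replicate 1 or 2. It was 6 without aged replicate 3. In protein and lipid turnover, mitochondrial ribosomal proteins had 0 of 77 higher and 2 lower, with Mrps18b in the core (30.9% of its 50-base stretches shared with other genes), proteasome subunits 1 of 37 and 1, with Psmb8, and lipogenesis 0 of 23 and 1. Metal handling had 3 of 21 higher and 0 lower, with Mt4 in the core, prostaglandin metabolism 3 of 19 and 0, with Ptgr1, aldo-keto reductases and steroid enzymes 3 of 18 and 1, with Akr1c13, and the Ly6 family 2 of 17 and 1, with Thy1.

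**Figure D5:**
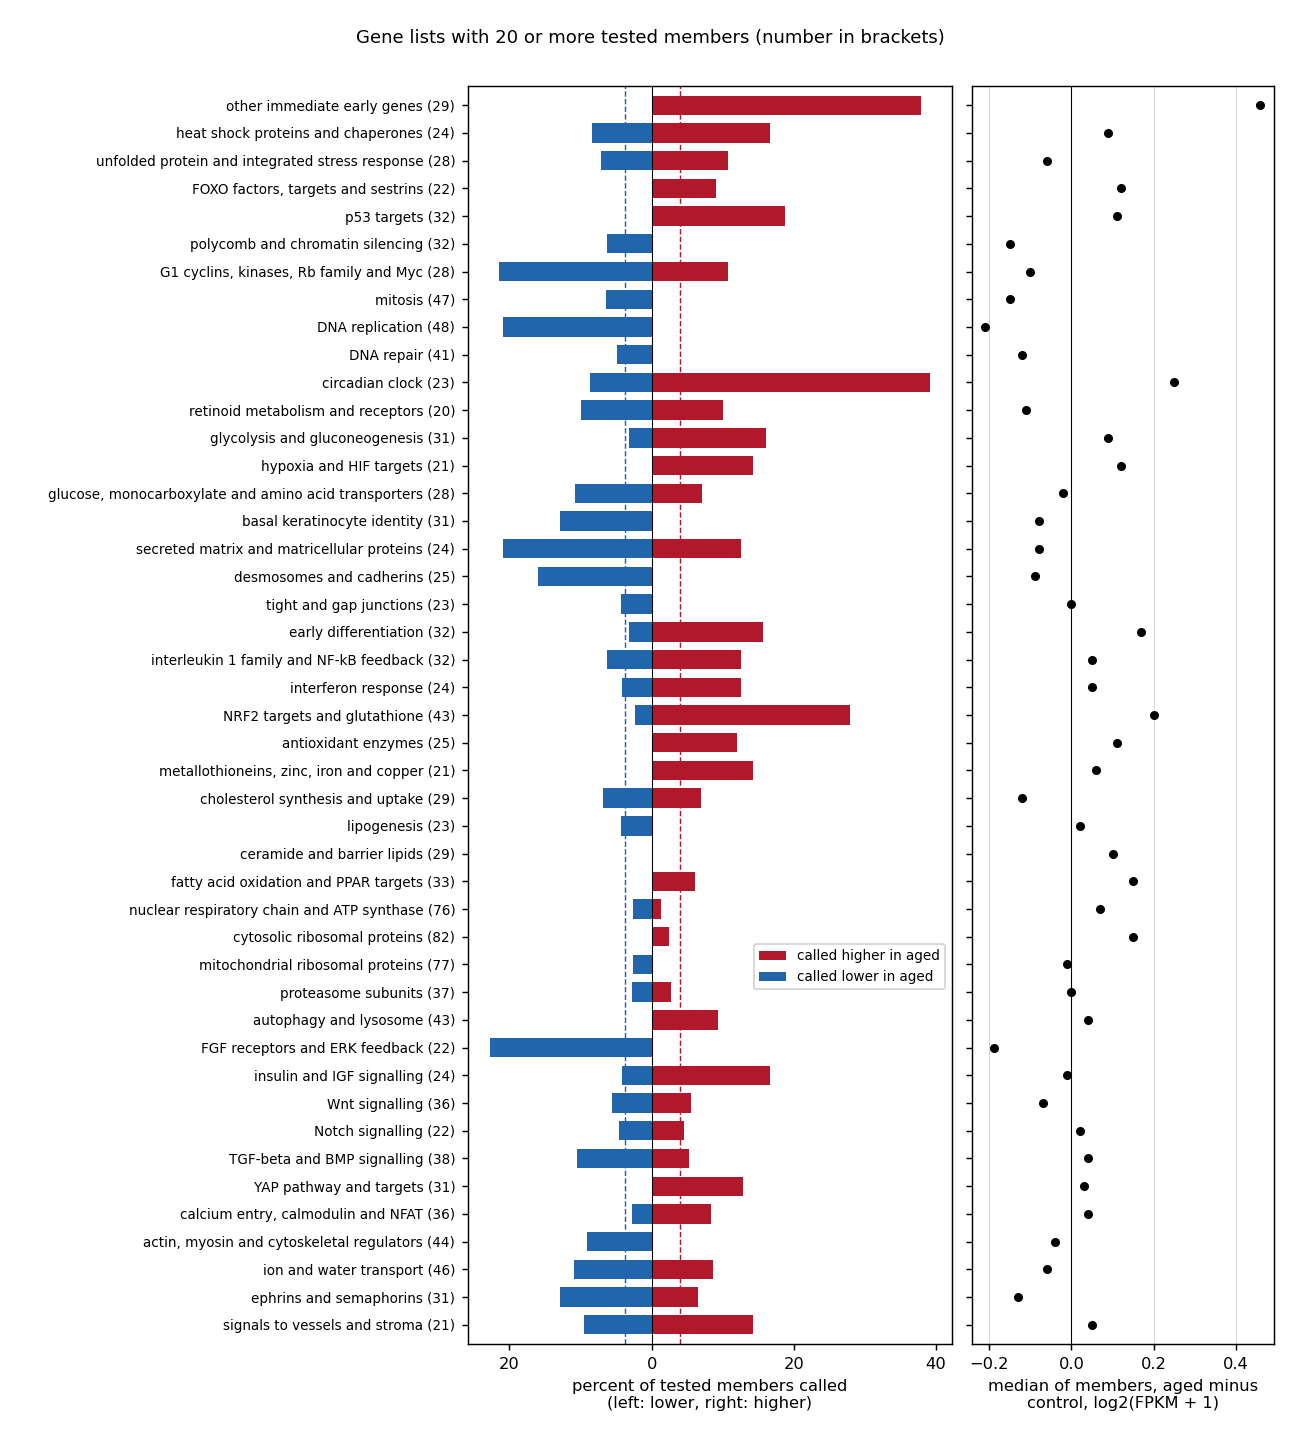
Share of tested members called higher (red, right) or lower (blue, left) in aged cells for the gene lists with at least 20 tested members, with dashed lines at the shares over all genes (4.01% and 3.74%), and, on the right, the median difference of each list. The other immediate early genes (11 of 29 higher) and the clock (9 of 23 higher) reach farthest to the right, and DNA replication (10 of 48) and FGF receptors and ERK feedback (5 of 22) are among the farthest to the left, with the G1 genes (6 of 28).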

How the data were processed

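Polyadenylated RNA of 9 libraries was analysed from 1 table of FPKM values deposited by the authors; 0 columns of per-sample values were left unmapped. Per the submitters' processing notes, the tools were STAR 2.6.0c, HTSeq 0.11.2, cutadapt and DESeq2, with the mm10 build; how the FPKM values and their gene lengths were made, and the strand setting, are not given in the sources used here. Low values were whole multiples of 1 read for 97.5% to 98.2% of values (tolerance 0.02 reads), which gave the estimated depths.

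Values were compared as log2(FPKM + 1) where the mean over the libraries reached 1 FPKM. limma 3.58.1 in R 4.3.3 was fitted with 1 mean per group over all 9 libraries (mean-variance trend, with 6 degrees of freedom from the residuals and 5.5 from the prior), two-sided, with Benjamini-Hochberg adjustment over all 10367 genes; the fit was tested on simulated data. The core holds calls kept in all 6 fits without 1 aged or control library.

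The gene lists and members were chosen with earlier results of these data known. Named genes were the 25 largest rises and falls and the 10 largest FPKM gains and losses in the core, up to 4 core members of each list by p, and fixed markers; predicted models were not named, and a few genes are not reported here. Other list members were named after their values were seen, to account for lists in full. Gene positions, GC content and shared 50-base stretches came from GENCODE M21 (GRCm38; 22362 of 22399 rows matched), and promoters from RefSeq (GRCm38.p6). The alternatives were another pseudocount, other expression minimums, 3 scalings, library weights, a robust prior, a GC correction, a replicate block, the 6 libraries alone and leaving out each library.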

Additional observations from a re-analysis of the deposited data

How the results depend on the processing

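With only the 6 aged and control libraries fitted, 274 genes were called higher and 195 lower, and 457 of the 804 calls were shared. Without a filter on low values, where 15708 genes were tested, 326 were called higher and 244 lower. Leaving out 1 library gave 190 to 592 genes higher and 114 to 662 lower, the fewest without aged replicate 1 and the most without aged replicate 3. A pseudocount of 0.1, quantile or median-ratio normalization, scaling to total FPKM, a minimum of 5 FPKM, library weights, a robust prior and a GC correction kept both counts within 1.5 times of 416 and 388. Of 107 named core genes all kept their call under each alternative, except Dusp1 with no filter. At the minimum of 5 FPKM 85 could be tested, and none of the calls reversed. For the fits without 1 library this result was fixed in advance, since the core was defined by those fits. For the other alternatives it was likely in advance, since these genes were named for large differences or small p in the same values. It does not stand for all 804 calls.

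The labels number the libraries of each group ex1 to ex3 and do not say whether a number marks a shared experiment, day or litter. Deviations from the group means correlated at 0.121, -0.052 and 0.185 for aged and control libraries of the same number. With 3 libraries a group these values cannot settle whether the numbers mark a pairing, and the main fit did not use them. With the replicate block 557 genes were called higher and 580 lower, and with the GC correction and the replicate block 468 and 404. Depth limits genes near 0 in a group, such as Cdkn2a with an estimated 0 to 6 and Fbp2 with an estimated 4 to 22 reads per control library.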
